A study of Mus musculus with 11 samples.

Results

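The glypicans and syndecans are the 2 main families of heparan sulfate proteoglycans held at the cell surface, and their 10 mouse genes (*Gpc1* to *Gpc6* and *Sdc1* to *Sdc4*) were taken by symbol from the 24062 genes of the count files. The libraries were made from primary fetal lung mesenchymal cells of embryonic day 15 mice, isolated from digested lungs by rapid adhesion to culture plastic and then passaged at least once. There were 4 wild-type (WT) libraries, 4 from cells with 1 disrupted *Sp3* allele (Sp3+/-) and 3 from cells in which both alleles were disrupted (Sp3-/-). The alleles were disrupted in the whole embryo rather than in a chosen cell type. All groups came from the same kind of culture, and no transgene, Cre or drug separates them in the labels. A library is named here by its genotype and the first 2 numbers of its title. Nothing in the labels says which libraries came from separate embryos or litters, so p-values measure the spread between libraries, which may in part be technical.

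Glypicans are tied to the outer membrane by a lipid anchor, whereas syndecans span the membrane and carry a short tail that binds the cytoskeleton and signaling proteins. Both families carry long heparan sulfate chains that hold fibroblast growth factors, Wnts, Hedgehog and bone morphogenetic proteins near their receptors. In the developing lung these ligands pass between mesenchyme and epithelium, and *Fgf10* made by distal mesenchyme needs heparan sulfate to act on the growing epithelial tips. Sp3, the transcription factor whose gene is disrupted in the Sp3-/- cells, binds GC-rich promoter elements.

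Between 9849111 and 59297495 reads per library were counted on genes. *Sp3* itself measured 92.0, 60.7, 107 and 78.8 CPM (its reads scaled to the library total) in WT libraries 468-4, 685-2, 697-1 and 697-3. It measured 51.8, 63.2, 71.6 and 56.2 CPM in Sp3+/- libraries 468-3, 685-5, 685-7 and 697-4, and 18.9, 18.3 and 14.4 CPM in Sp3-/- libraries 685-1, 697-2 and 697-5. The labels of the Sp3-/- libraries therefore match the level of the targeted gene, which was lower there than in all other libraries (log2 fold change against WT -2.30, standard error 0.21, adjusted p = 0.00611, edgeR). Genotype was nearly confounded with an unexplained suffix at the end of the library titles. All 3 Sp3-/- libraries have no suffix, and among the others only WT 468-4 and Sp3+/- 697-4 have none. Titles were used throughout, and the name of the file of Sp3+/- 697-4 carries suffix 2, so values with the suffix as a covariate rest on that choice. Markers of other cell types also differed between genotypes. The summed level of 10 macrophage markers was 590 to 3173 CPM in WT, 355 to 2970 CPM in Sp3+/- and 3034 to 11301 CPM in Sp3-/- libraries, with *Cd74* at 13 reads or fewer in each library. The macrophage sum also followed the suffix, at 2970 to 11301 CPM in all libraries without one and 355 to 861 CPM in all with one. The summed level of 6 mesothelial markers was 697 to 1664, 1369 to 2418 and 2032 to 5656 CPM in WT, Sp3+/- and Sp3-/- libraries. The 9 epithelial markers summed to 14.5 to 33.7, 21.2 to 31.6 and 46.9 to 152 CPM, with *Sftpb* and *Cldn18* at 3 reads or fewer in every library. In Sp3-/- libraries most of this sum was *Krt18* (36.5 to 104 CPM) and *Krt8* (3.40 to 40.3 CPM). The lung epithelial genes *Nkx2-1* and *Sftpc* had at most 5 reads and 1 read in those libraries, so the sum is not a measure of lung epithelium. Lung mesenchyme markers (9 genes) summed to 13089 to 22064 CPM in WT, 14914 to 22332 CPM in Sp3+/- and 7092 to 19038 CPM in Sp3-/- libraries. Most of this sum was *Col1a1*, *Col1a2*, *Col3a1* and *Vim*, each at 998 CPM or more in every library. The other markers of this list were each at 539 CPM or less, so the sum mainly follows collagen and *Vim* RNA. In such bulk RNA, fewer cells of a type and less RNA per cell cannot be told apart.

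The 10 genes covered a wide range of levels. They were compared with each other as RPKM (CPM per kilobase of the canonical transcript). In WT cells *Gpc4* was highest at 98.0±24.6 RPKM (s.d., n=4), above *Sdc3* and *Sdc2* in every library but below *Gpc3* in the libraries where that gene was high. *Sdc3* (53.2±9.32 RPKM), *Sdc2* (52.2±5.24 RPKM) and *Gpc3* (51.5±41.5 RPKM) followed and overlapped each other across WT libraries. *Sdc1* (31.6±7.64 RPKM) and *Sdc4* (30.1±5.54 RPKM) overlapped as well, and the widely spread *Gpc3* reached down past both. *Gpc1* (11.7±1.45 RPKM), *Gpc6* (8.95±2.78 RPKM) and *Gpc2* (6.67±2.03 RPKM) formed a lower group in which each gene overlapped the next. *Gpc5* was near the limit of detection at 0.119±0.0549 RPKM. The order of the middle genes depends on the length used. With all annotated exons as the length, a choice made after seeing the data, the mean of *Sdc2* over the 11 libraries dropped from 53.3 to 28.2 RPKM, below *Sdc3* (40.2 RPKM), *Gpc3* (39.2 RPKM) and *Sdc4* (36.6 RPKM).

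Of the 10 genes, 9 passed the filter of CPM above 1 in at least 1 library and were tested. *Gpc5*, a glypican closely related to *Gpc3*, did not. Between Sp3-/- and WT cells, 2 glypicans fell (*Gpc4* and *Gpc6*), 1 syndecan rose (*Sdc4*), and the other 6 did not pass an adjusted p of 0.05. Over all 14025 genes tested, 18.5% passed in this comparison, 8.76% higher and 9.77% lower, so 3 of 9 is read against a background in which calls were common.

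**Figure D1:**
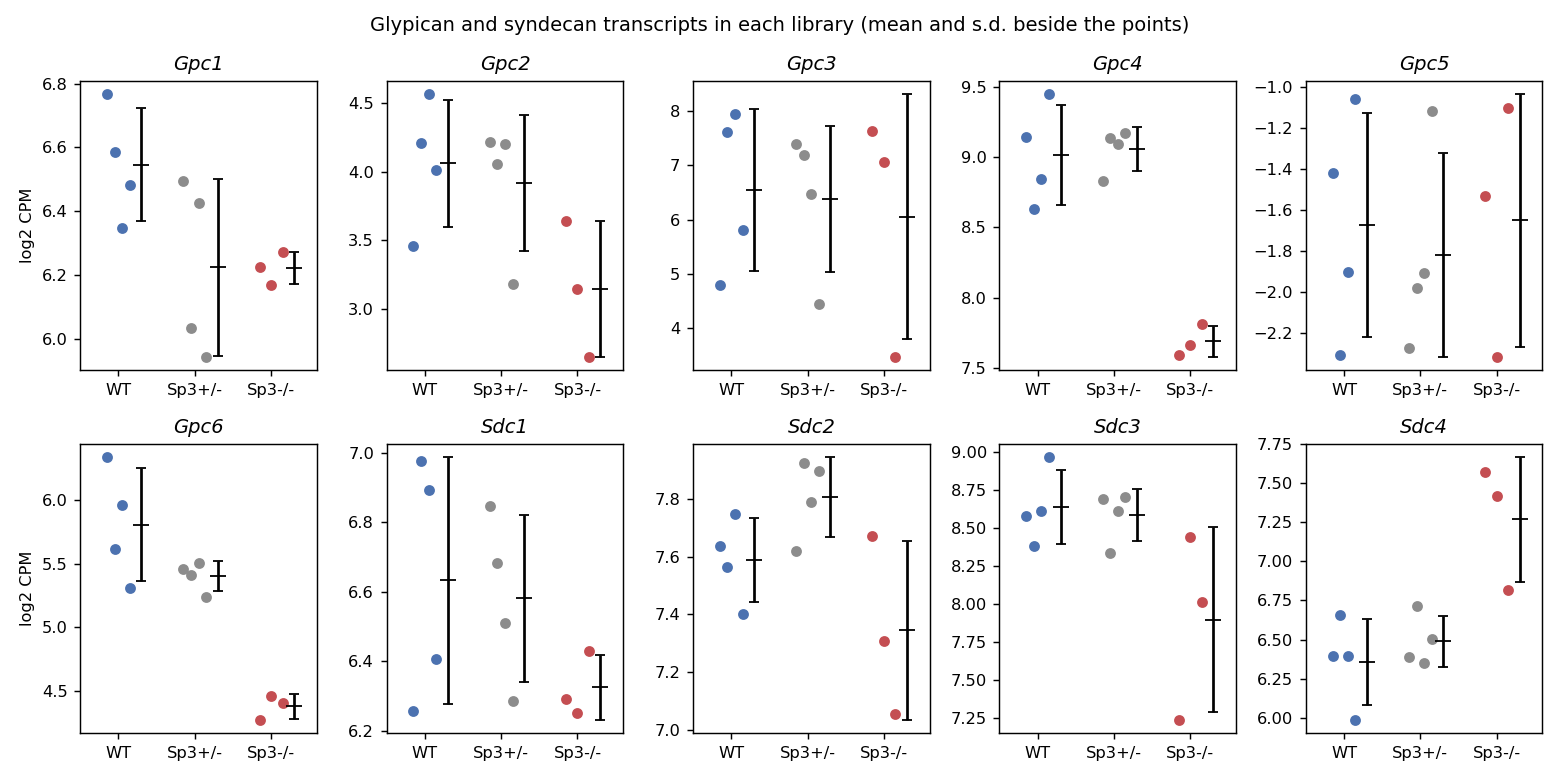
Transcript level of each glypican and syndecan (log2 CPM, vertical axes differ between panels) in every library of the 3 genotypes, with the mean and s.d. beside the points. *Gpc4* and *Gpc6* lie lower in all 3 Sp3-/- libraries than in any other library, *Sdc4* lies higher, and *Gpc3* varies over a 22.3-fold range without following genotype.

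*Gpc4*, a glypican known to modulate Wnt and fibroblast growth factor signaling, lies on chromosome X of GRCm38.p6 from 52051007 to 52164923. It measured 566, 396, 459 and 699 CPM in WT 468-4, 685-2, 697-1 and 697-3. In Sp3-/- 685-1, 697-2 and 697-5 it measured 193, 203 and 225 CPM. Every Sp3-/- library was below every WT library, and the 3 null libraries lay close together. This was a 2.56-fold lower level, or -1.36 on the log2 scale (standard error 0.20, 95% interval -1.83 to -0.88, adjusted p = 0.0111, edgeR). Between libraries with the same first title number, the differences were -1.04 log2 CPM within 685 (1 library each) and -1.41 log2 CPM within 697 (2 libraries each). Their direction follows from the lack of overlap, so only their size is new. When the 7 libraries were dropped singly, the call was lost only without Sp3-/- 697-2 (log2 fold change -1.34, adjusted p = 0.0547, edgeR).

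*Gpc6*, whose human counterpart is mutated in a skeletal dysplasia with short limbs, lies on chromosome 14 from 116924920 to 117979529. It measured 81.0, 49.1, 62.2 and 39.4 CPM in the WT libraries, in the same order, and 19.2, 21.9 and 21.0 CPM in the Sp3-/- libraries. The genotypes did not overlap, although WT libraries spread more widely than null libraries. The level in null cells was 2.80-fold lower, -1.49 on the log2 scale (standard error 0.24, 95% interval -2.06 to -0.92, adjusted p = 0.0133, edgeR). It was -1.35 and -1.21 log2 CPM within the first title numbers 685 and 697. As for *Gpc4*, the call was lost, of the fits lacking 1 library, only when Sp3-/- 697-2 was left out (-1.52, adjusted p = 0.0565, edgeR). *Gpc4* and *Gpc6* were called in all 11 other settings. The setting that contrasts only libraries without a suffix was fitted on all 11 libraries, so its spread came in part from the others. WT is a single library in that contrast, 468-4. With the suffix as a covariate, WT 468-4 is the only WT library at the suffix level of the Sp3-/- libraries.

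*Sdc4*, the syndecan found in focal adhesions, where it binds protein kinase C alpha, lies on chromosome 2 from 164424247 to 164443188. It measured 84.1, 101, 84.0 and 63.4 CPM in WT libraries and 190.0, 171 and 113 CPM in Sp3-/- libraries. All null libraries were above all WT libraries, with 697-5 the nearest to them. Null cells thus held 1.89-fold more, or 0.92 on the log2 scale (standard error 0.20, 95% interval 0.44 to 1.40, adjusted p = 0.0266, edgeR). Within the first title numbers 685 and 697 the differences were 0.92 and 0.93 log2 CPM. The size of this change was steadier than its call, which held in 3 of the 7 fits lacking a library. It was lost without Sp3-/- 685-1 (0.76, adjusted p = 0.0587), Sp3-/- 697-2 (0.87, adjusted p = 0.0985), WT 697-1 (0.93, adjusted p = 0.0705) and WT 697-3 (0.81, adjusted p = 0.0631), all from edgeR. With the suffix covariate it was 0.92 (adjusted p = 0.0631, edgeR).

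The promoters of *Sdc4* and *Gpc4* differ in GC boxes, the GGGCGG element that Sp factors bind. RefSeq promoters of GRCm38.p6, from 250 bases before to 50 bases after the start site, were matched for 7 of the 10 genes, and *Gpc1*, *Gpc6* and *Sdc2* had no entry. In the sequences, capitals mark GGGCGG or, on the other strand, CCGCCC. Those of *Sdc4*, which rose, of *Gpc4*, which fell, and of its neighbor *Gpc3*, which was not called, are shown as a gene of each outcome.
Sdc4, chr2:164443139-164443438, minus strand: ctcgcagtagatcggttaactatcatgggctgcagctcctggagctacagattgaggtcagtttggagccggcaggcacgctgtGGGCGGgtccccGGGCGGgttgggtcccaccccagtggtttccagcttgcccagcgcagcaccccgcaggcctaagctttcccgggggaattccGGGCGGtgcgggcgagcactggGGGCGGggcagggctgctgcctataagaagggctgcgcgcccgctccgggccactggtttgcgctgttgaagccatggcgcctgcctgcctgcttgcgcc
Gpc4, chrX:52164874-52165173, minus strand: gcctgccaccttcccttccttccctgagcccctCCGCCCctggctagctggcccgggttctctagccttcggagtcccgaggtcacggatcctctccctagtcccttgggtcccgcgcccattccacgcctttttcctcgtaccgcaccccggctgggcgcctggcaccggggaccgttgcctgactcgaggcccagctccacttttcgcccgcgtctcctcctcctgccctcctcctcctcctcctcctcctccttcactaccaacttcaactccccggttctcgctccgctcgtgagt
Gpc3, chrX:52613925-52614224, minus strand: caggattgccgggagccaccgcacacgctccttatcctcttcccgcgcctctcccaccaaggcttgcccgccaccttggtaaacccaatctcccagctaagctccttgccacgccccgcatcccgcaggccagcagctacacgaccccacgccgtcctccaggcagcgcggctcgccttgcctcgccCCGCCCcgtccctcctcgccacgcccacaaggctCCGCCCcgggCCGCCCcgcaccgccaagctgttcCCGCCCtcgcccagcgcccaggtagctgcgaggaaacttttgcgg
The *Sdc4* promoter holds 4 matches on the strand of the gene, and that of *Gpc4* holds 1 on the other strand, 217 bases before the start site. The *Gpc3* promoter holds 4, all on the other strand. The promoters of *Gpc2*, *Sdc1* and *Sdc3* hold 3 each and that of *Gpc5* holds 1. At least 1 match was found in 35.66% and at least 3 in 10.71% of all 32851 promoters of this length. The median share of G and C in those was 52.67%, against 54.67% (*Gpc5*) to 77.67% (*Sdc3*) in the 7 matched here. No allowance was made for this difference. A match describes the letters in this window only.

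The other glypicans did not pass the threshold. *Gpc1*, a widely expressed glypican that binds fibroblast growth factors, measured 81.4 to 109 CPM in WT and 72.01 to 77.2 CPM in Sp3-/- libraries. These ranges did not overlap, but the change was small (log2 fold change -0.33, standard error 0.11, adjusted p = 0.0721, edgeR), and it passed only with upper-quartile scaling (-0.40, adjusted p = 0.0471, edgeR). *Gpc2*, best known from developing neurons, measured 10.9, 18.4, 23.6 and 16.1 CPM in WT and 12.4, 8.78 and 6.21 CPM in Sp3-/- libraries, where the first library overlapped WT. A change of -0.91 (log2 scale, standard error 0.31, adjusted p = 0.0765, edgeR) resulted. *Gpc2* passed with DESeq2 (-0.91, adjusted p = 0.0252) and in edgeR without WT 468-4 (-1.08, adjusted p = 0.0251), the WT library with the lowest level. WT 468-4 is also the only WT library without a suffix. With the suffix covariate *Gpc2* was -0.21 (adjusted p = 0.649, edgeR), and without Sp3-/- 697-2 it was not called (adjusted p = 0.203, edgeR). *Gpc5* had 2 to 14 reads in each of the 11 libraries (0.135 to 0.415 CPM), too few to compare genotypes.

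*Gpc3*, an inhibitor of Hedgehog signaling whose loss causes overgrowth, was the most variable of the 10 genes. It lies next to *Gpc4* on chromosome X (52272426 to 52613974), 107.5 kb away with no protein-coding gene between. It measured 27.7, 196, 246 and 56.4 CPM in WT libraries 468-4, 685-2, 697-1 and 697-3. In Sp3+/- libraries 468-3, 685-5, 685-7 and 697-4 it measured 169, 147, 88.4 and 21.8 CPM. The Sp3-/- libraries 685-1, 697-2 and 697-5 had 199, 134 and 11.01 CPM. Every genotype thus held high and low libraries, and the 22.3-fold range over the 11 libraries compares with 1.65-fold for *Sdc1*, the steadiest member. The log2 fold change of *Gpc3* between Sp3-/- and WT was -0.22 with a wide 95% interval of -2.52 to 2.08 (adjusted p = 0.891, edgeR), and its direction turned in several other settings. *A630012P03Rik*, which overlaps the start of *Gpc3*, had 5 reads or fewer in each library. The strand setting of the counting is not given in the sources used here.

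Among the remaining syndecans, *Sdc3*, a long-core syndecan first described in nerve and muscle, came nearest to a change. It measured 382, 333, 391 and 500.4 CPM in WT and 151, 347 and 258 CPM in Sp3-/- libraries. Sp3-/- 697-2 lay within the WT range and the other two below it. On the log2 scale *Sdc3* differed by -0.67 (standard error 0.28, adjusted p = 0.126, edgeR). *Sdc1*, the syndecan of epithelia and plasma cells, measured 76.3 to 126 CPM in WT and 76.1 to 86.1 CPM in Sp3-/- libraries (log2 fold change -0.34, 95% interval -0.80 to 0.11, adjusted p = 0.24, edgeR). *Sdc2*, the syndecan typical of fibroblasts, measured 169 to 215 CPM in WT and 133 to 204 CPM in Sp3-/- libraries (log2 fold change -0.23, 95% interval -0.59 to 0.12, adjusted p = 0.297, edgeR). Both genes overlapped between these genotypes.

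**Figure D2:**
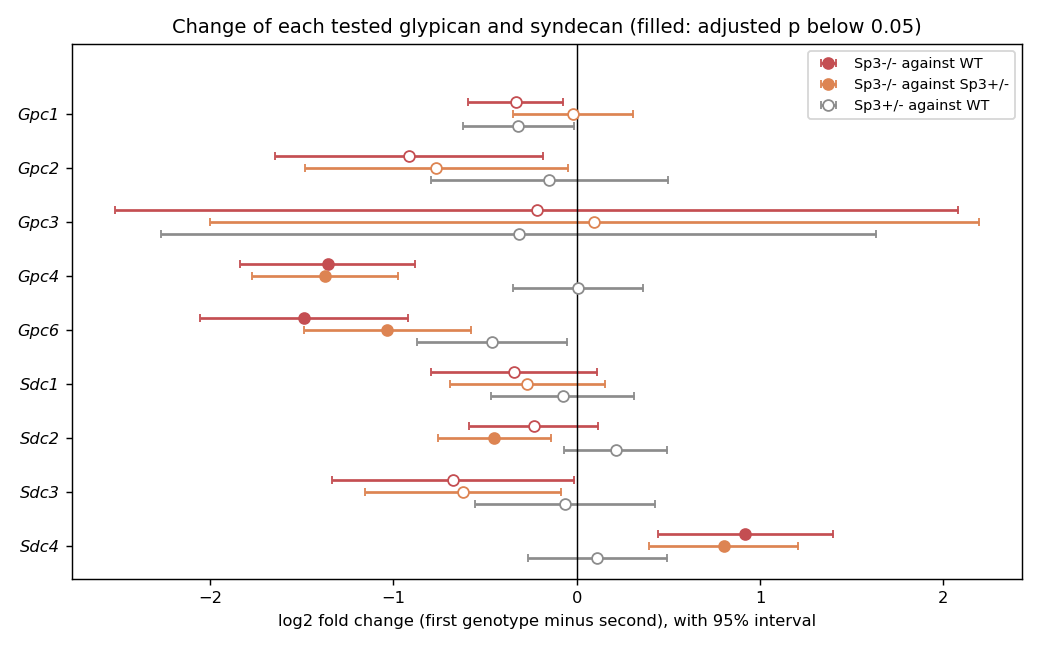
Log2 fold change of the 9 tested genes with its 95% interval in the 3 comparisons of genotypes, filled where the adjusted p was below 0.05. *Gpc4* and *Gpc6* lie left of 0 and *Sdc4* right of 0 in both comparisons with Sp3-/- cells, *Sdc2* is filled only against Sp3+/-, and no gene is filled for Sp3+/- against WT.

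Cells with 1 disrupted allele were then set against WT in the fit of all 11 libraries. None of the 9 genes was called, and the share called over all 14130 genes was 0%, with 246 genes at an unadjusted p below 0.05 in edgeR. DESeq2 and limma-voom called 0 genes as well. *Sp3* itself, with 1 allele disrupted, was not called either (log2 fold change -0.49, standard error 0.16, 95% interval -0.85 to -0.13, edgeR). The lack of calls therefore does not show that levels were unchanged. *Gpc4* measured 454, 563, 546 and 576 CPM in Sp3+/- libraries, inside the WT range, and its log2 fold change was 0.01 (95% interval -0.35 to 0.36, edgeR). *Gpc6* measured 43.8, 42.5, 45.2 and 37.7 CPM. Of the WT libraries, only 697-3 (39.4 CPM) lay in this range, the other 3 being higher, and the log2 fold change was -0.46 (95% interval -0.87 to -0.05, adjusted p = 1, edgeR). *Sdc4* measured 83.8, 105, 81.7 and 90.7 CPM, with a log2 fold change of 0.11 (95% interval -0.27 to 0.49, edgeR). The other 6 changes lay between -0.32 (*Gpc1*) and 0.21 (*Sdc2*), each with an adjusted p of 1 in edgeR.

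Against Sp3+/- cells, Sp3-/- cells again had less *Gpc4* and *Gpc6* and more *Sdc4*, and *Sdc2* was lower as well. This comparison has its own controls but shares the 3 Sp3-/- libraries with the one against WT. Over all 14130 genes, 25.5% passed, 13% higher and 12.5% lower, beside 4 of the 9 tested here. *Gpc4* differed by -1.37 on the log2 scale (standard error 0.18, adjusted p = 0.00173, edgeR), and all Sp3-/- libraries lay below all Sp3+/- libraries. For *Gpc6* it was -1.03 (standard error 0.21, adjusted p = 0.00811, edgeR), also without overlap. For *Sdc4* it was 0.80 (standard error 0.18, adjusted p = 0.0133, edgeR), with 113 CPM in Sp3-/- 697-5 close to 105 CPM in Sp3+/- 685-5. The call of *Sdc4* was lost without Sp3-/- 697-2 (adjusted p = 0.0525, edgeR). *Gpc4* and *Gpc6* were called with each of the 11 libraries left out.

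*Sdc2* measured 197, 243, 221 and 238 CPM in Sp3+/- and 204, 158 and 133 CPM in Sp3-/- libraries. Sp3-/- 685-1 lay above Sp3+/- 468-3, so these genotypes overlapped. The difference in *Sdc2* was -0.45 on the log2 scale (standard error 0.14, adjusted p = 0.0389, edgeR), and it was called in 5 of the 11 fits lacking 1 library. Not called in this comparison were *Sdc3* (-0.62, adjusted p = 0.0822), *Gpc2* (-0.77, adjusted p = 0.106), *Sdc1* (-0.27, adjusted p = 0.32), *Gpc1* (-0.02, adjusted p = 0.933) and *Gpc3* (0.10, adjusted p = 0.953), all from edgeR. *Gpc2* was -0.95 without Sp3+/- 697-4 (adjusted p = 0.0379) and -0.01 with the suffix covariate (adjusted p = 0.987), both from edgeR.

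Summed over each family, glypican transcripts separated Sp3-/- from WT libraries and syndecan transcripts did not. *Gpc4*, already called, made up 40.4% to 73.9% of the glypican sum in WT libraries, so the sum is not independent of its fall. Whether the glypicans other than *Gpc4* fell together was not tested. The 6 glypicans together measured 146, 177, 210.1 and 175 RPKM in the WT libraries and 131, 106 and 61.3 RPKM in the Sp3-/- libraries, which were all lower. The Sp3+/- libraries measured 163±22.3 RPKM (s.d., n=4), from 132 to 183. With library size alone in place of TMM, a setting added after seeing the data, the highest null library (133 RPKM) passed the lowest Sp3+/- library (132 RPKM), while WT libraries (147 to 211 RPKM) stayed apart. The 4 syndecans together measured 167±8.67 RPKM in WT (s.d., n=4), 175±3.81 RPKM in Sp3+/- (s.d., n=4) and 160±19.6 RPKM in Sp3-/- cells (s.d., n=3), and these ranges overlapped.

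Within the families, the share of *Sdc4* among the syndecans separated Sp3-/- from WT libraries, and the shares of *Gpc4* and *Gpc6* among the glypicans overlapped. *Sdc4* contributed 19.2%, 21.4%, 17.2% and 14.3% of syndecan RPKM in the WT libraries and 40.9%, 35.6% and 29.7% in the Sp3-/- libraries, without overlap. *Gpc4* contributed 40.4% to 73.9% of glypican RPKM in WT and 27.3% to 67.8% in Sp3-/- libraries. These shares overlapped, and the share of *Gpc3* ran from 7.43% to 45.8% in WT and from 7.03% to 59.5% in Sp3-/- libraries. *Gpc3* was thus the most abundant glypican in Sp3-/- 685-1 and 697-2 but a minor one in 697-5.

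**Figure D3:**
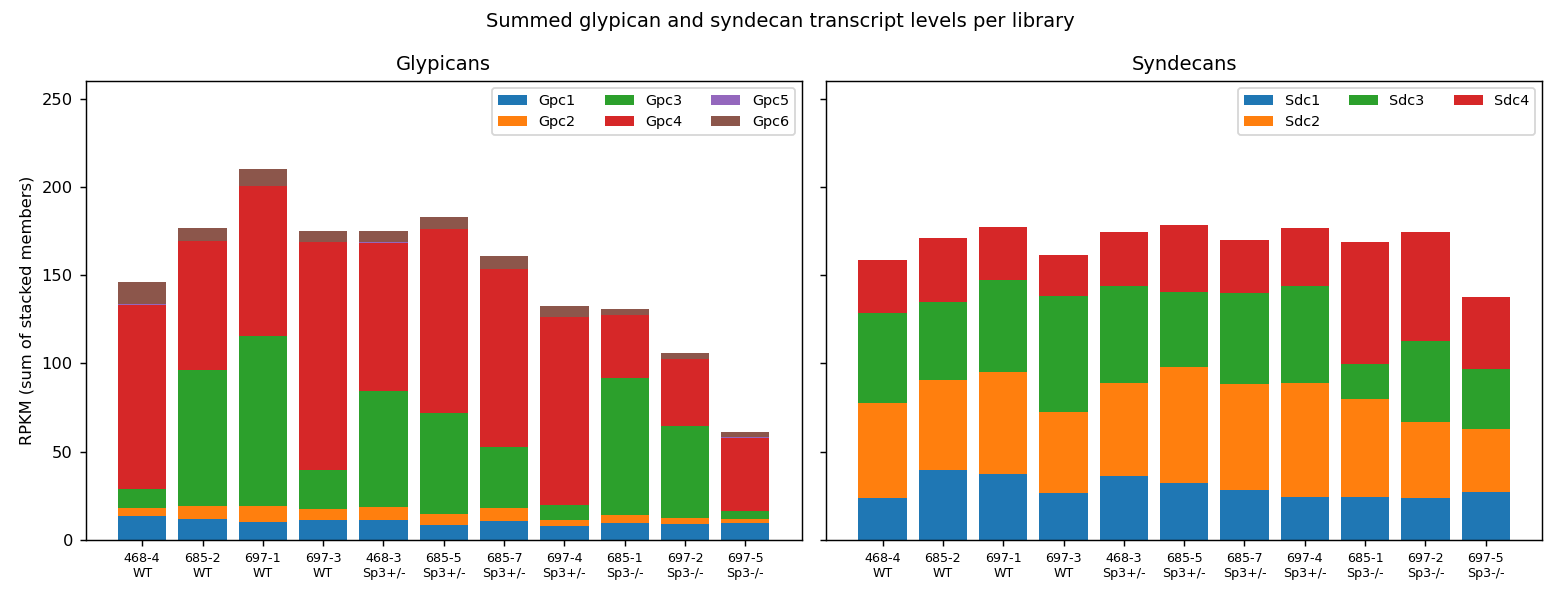
Stacked RPKM of the glypicans (left) and syndecans (right) in each library, grouped by genotype. The glypican bars reach 146 to 210.1 RPKM in WT and 61.3 to 131 RPKM in Sp3-/- libraries, while the syndecan bars stay between 138 and 178 RPKM and hold more *Sdc4* in Sp3-/- libraries.

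The called genes were next set beside the markers of other cells. Of the WT and Sp3+/- libraries, only WT 468-4 and Sp3+/- 697-4 have no title suffix. Their macrophage sums were 3173 and 2970 CPM, close to the 3034 CPM of Sp3-/- 685-1. *Gpc4* was 566 and 576 CPM in WT 468-4 and Sp3+/- 697-4 and 193 CPM in the null library. *Gpc6* was 81.0 and 37.7 CPM against 19.2 CPM, and *Sdc4* was 84.1 and 90.7 CPM against 190.0 CPM. The other Sp3-/- libraries, 697-2 (11301 CPM) and 697-5 (10189 CPM), had macrophage sums that no WT or Sp3+/- library reached, and the part of macrophages in these changes was not tested. *Sdc4* and the mesothelial sum (5656 CPM) were both highest in Sp3-/- 685-1, followed by 697-2 (2979 CPM), while 697-5 (2032 CPM) lay below Sp3+/- 685-5 (2418 CPM) in the sum and just above it in *Sdc4*. *Krt18*, on the epithelial list, had a pattern over the 11 libraries close to that of *Sdc4* (Pearson's r 0.967). The part of mesothelial or epithelial cells in the rise of *Sdc4* was not tested. In Sp3-/- against WT, 4 of 9 tested macrophage markers were called higher, with 3 of 6 mesothelial and 3 of 6 epithelial markers. Of 6 endothelial genes, 1 (*Vwf*) was called higher, and the median of that list was -0.13. Over all genes, 8.76% were called higher. Of 9 lung mesenchyme genes, 4 were called lower, beside 9.77% of all genes. With the suffix covariate, *Wt1* (1.27, adjusted p = 0.0314), *Cdh1* (4.26, adjusted p = 0.0339) and *Pdgfrb* (-1.35, adjusted p = 0.00977) kept their call in edgeR. *C1qa*, *C1qb*, *Lyz2*, *Msln*, *Upk1b*, *Krt18*, *Epcam*, *Foxf1* and *Tbx5* lost theirs (adjusted p 0.0543 to 0.153, edgeR). *Mrc1*, *Vim* and *Vwf* were not followed in that fit. None of 10 S phase and mitosis genes was called, beside 18.5% of all genes. Their median log2 fold change was -0.97, against -0.0032 for all genes tested. *Pcna* alone of them was higher (0.56, adjusted p = 0.0525, edgeR). The sum of these genes also followed the suffix, at 183 to 376 CPM in all libraries without one and 404 to 659 CPM in all with one.

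**Figure D4:**
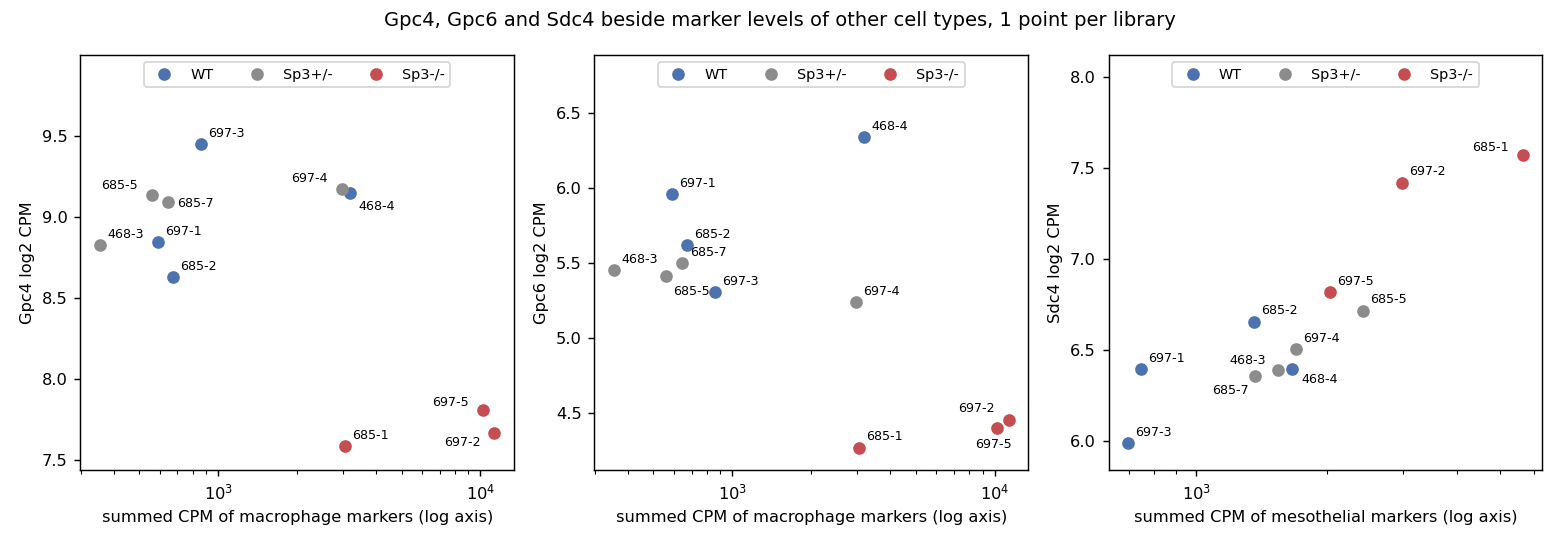
Level of *Gpc4*, *Gpc6* (each against summed macrophage markers) and *Sdc4* (against summed mesothelial markers), log2 CPM against CPM on a log axis, with 1 labelled point per library. WT 468-4 and Sp3+/- 697-4 share the macrophage level of Sp3-/- 685-1 (2970 to 3173 CPM) and lie above it in *Gpc4* and *Gpc6*, while the other Sp3-/- libraries have no counterpart at their macrophage level. *Sdc4* and the mesothelial sum are both highest in Sp3-/- 685-1.

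Other patterns over the 11 libraries resembled those of the called genes, among 11203 genes with a mean above 2 log2 CPM. *Sorbs2* (Pearson's r 0.986) and *Ngfrap1* (0.984) were closest to *Gpc4*, *Pvt1* (0.952) and *Abcg2* (0.951) to *Gpc6*, and *1010001N08Rik* (0.968) to *Sdc4*. These likenesses hold across libraries that share genotype, culture and depth, and are descriptions only. *Gpc4* and *Gpc3* lie on chromosome X, and *Xist*, which is expressed from the inactive X of female cells, measured 624 CPM in Sp3+/- 685-5, 430.3 CPM in Sp3-/- 697-5 and 0.448 CPM or less elsewhere. *Gpc4* measured 563 and 225 CPM in these 2 libraries, the latter the highest of the 3 Sp3-/- libraries, and the part of X dosage was not tested.

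The chains of these core proteins are built, modified and cut by other genes, which were followed as lists. Their counts are read against the 18.5% of all genes called in Sp3-/- against WT cells (8.76% higher and 9.77% lower), and no list was tested as a group. Of 11 genes for the linker and elongation of heparan sulfate, 2 were called lower and 1 higher. *Ext1*, which encodes a subunit of the chain polymerase, measured 180.2, 187, 221 and 252 CPM in WT and 106, 107 and 93.3 CPM in Sp3-/- libraries. It fell in every null library, by 1.04 on the log2 scale (standard error 0.14, adjusted p = 0.00886, edgeR), and *Ext2*, its partner subunit, fell by 0.41 (adjusted p = 0.035, edgeR). *B3gat3*, which adds the last sugar of the linker, rose by 0.52 (adjusted p = 0.0337, edgeR). The median of the list was 0.21, against -0.0032 over all genes tested. Of 11 tested modification genes among 16 listed, 2 fell, a share near that of all genes called (18.5%). *Hs6st2*, a 6-O-sulfotransferase, fell by 0.99 (adjusted p = 0.0408, edgeR) and *Glce*, the epimerase that converts glucuronic to iduronic acid, fell by 0.48 (adjusted p = 0.0477, edgeR), with a list median of -0.33. Of 7 genes for sugar and sulfate donors, both synthases of the activated sulfate donor fell, *Papss2* by 1.02 (adjusted p = 0.029, edgeR) and *Papss1* by 0.36 (adjusted p = 0.0349, edgeR).

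Genes of breakdown and release were followed in the same way. Of 11 tested genes for extracellular editing and lysosomal breakdown, only *Naglu*, a lysosomal enzyme that trims heparan sulfate, was called (0.85, adjusted p = 0.0124, edgeR). The sulfatases *Sulf1* (0.25, adjusted p = 0.486) and *Sulf2* (0.04, adjusted p = 0.803), which edit chains at the surface, were not called by edgeR. They are named outside the rule, after their values were seen. Of 12 tested genes for cleavage of the core proteins, 3 were called higher, beside 8.76% of all genes, and all 3 lost their call with the suffix covariate. *Timp3*, an inhibitor of the proteases that shed syndecans, rose by 1.39 (adjusted p = 0.0171, edgeR), *Adam17*, such a protease, rose by 0.81 (adjusted p = 0.0229, edgeR), and *Gpld1*, a phospholipase that cuts lipid anchors, rose by 0.39 (adjusted p = 0.0465, edgeR). The list therefore held a protease and its inhibitor changing in the same direction.

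Of 9 partners of syndecan tails, *Ezr*, a linker of membrane to actin, rose by 1.55 (adjusted p = 0.0239, edgeR) and *Actn1*, an actin crosslinker of focal adhesions, fell by 0.96 (adjusted p = 0.035, edgeR). None of 7 other heparan sulfate proteoglycans was called (median 0.01). Of 10 secreted ligands that bind heparan sulfate, 3 fell and 1 rose, beside 18.5% of all genes called. *Ptn*, a growth factor that binds syndecans, had a log2 fold change of -4.07 (adjusted p = 0.0224, edgeR). *Fgf10* changed by -2.54 on the log2 scale (adjusted p = 0.0329, edgeR). It measured 38.3, 43.0, 38.5 and 6.97 CPM in WT and 4.76, 4.40 and 7.51 CPM in Sp3-/- libraries, so that WT 697-3 lay within the null range. *Fgf1* rose by 2.52 (adjusted p = 0.0125, edgeR), the opposite direction to *Fgf10*. Most of the calls named from these lists ended with the suffix covariate. Of the 16 genes named here as called, *Ext1* (-0.82, adjusted p = 0.00977), *Papss2* (-1.30, adjusted p = 0.0122), *Naglu* (0.62, adjusted p = 0.0346) and *Fgf1* (2.00, adjusted p = 0.0147) kept theirs in edgeR, and the other 12, *Ptn* (-1.61, adjusted p = 0.116, edgeR) and *Fgf10* (-2.43, adjusted p = 0.0614, edgeR) among them, did not. In Sp3+/- against WT cells no gene of these lists was called by edgeR.

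**Figure D5:**
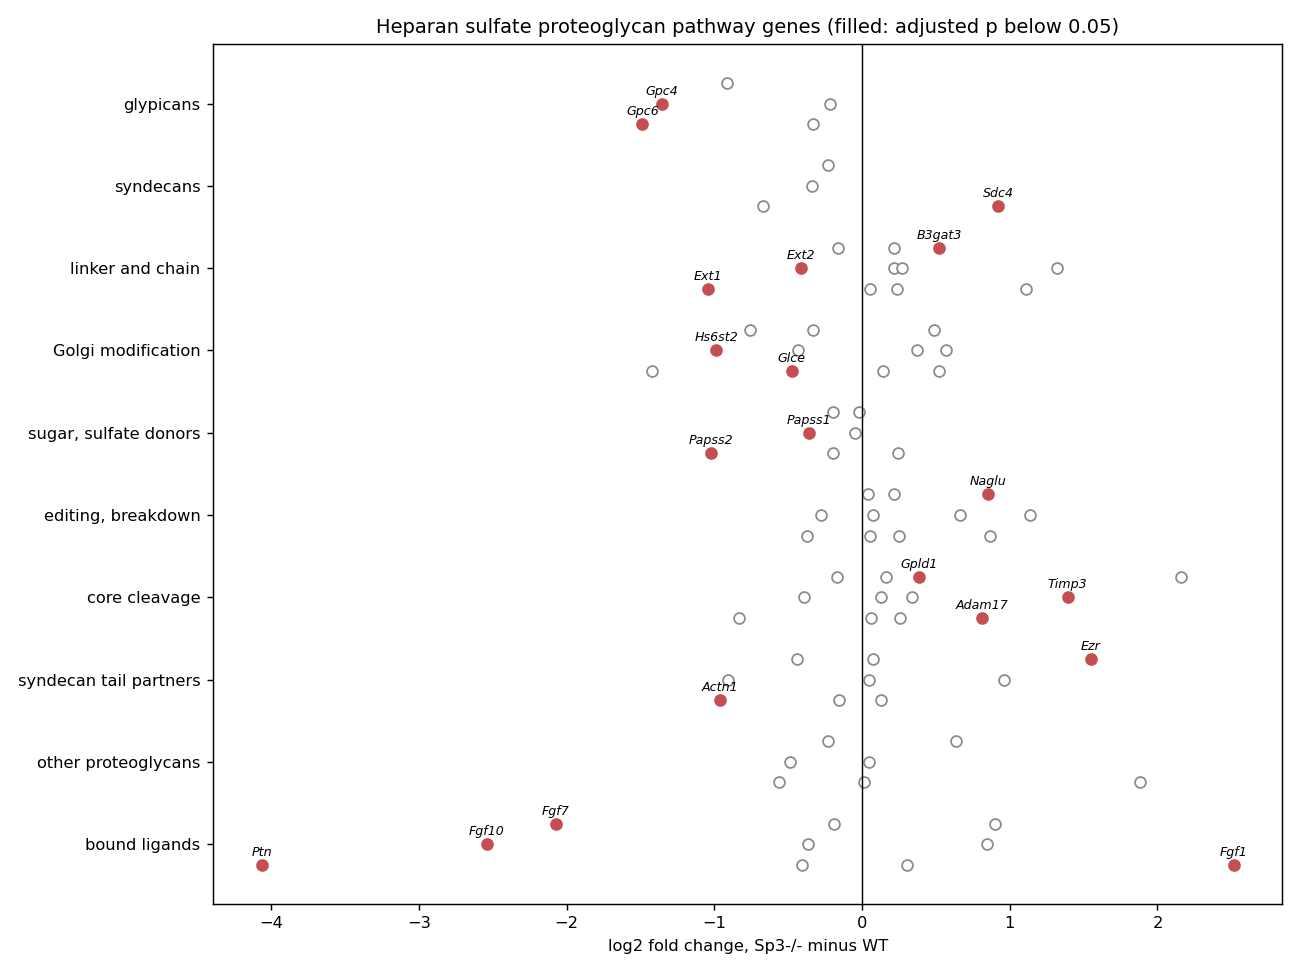
Log2 fold change (Sp3-/- minus WT) of each tested gene of the heparan sulfate proteoglycan lists, 1 row per list, filled and named where the adjusted p was below 0.05. The filled points of synthesis, modification and donor genes lie left of 0 except *B3gat3*, the 4 of breakdown and core cleavage genes lie right of 0, and most genes of every list are open.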

How the data were processed

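Libraries were prepared by the authors with a TruSeq kit and read as single ends of 50 bp. The methods and the submitters' processing notes give FastQC 0.10.1 for quality control, STAR 2.4.5a for alignment to mm10 and htseq-count for counting. The deposited files hold raw counts for each gene symbol of each library. The annotation version and strand setting are not given in the sources used here. Reads tallied outside genes (38.4% to 40.9% of a library) were left out.

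The test was edgeR 4.0.16 (TMM, estimateDisp, robust glmQLFit, glmQLFTest) in R 4.3.3 on genes that exceeded 1 CPM in 1 or more libraries, and calls are at a Benjamini-Hochberg adjusted p below 0.05 over all genes tested. Sp3-/- against WT used their 7 libraries, and contrasts with Sp3+/- used all 11. Values of single libraries are CPM, or log2 CPM with a prior count of 2, on TMM factors of all 11 libraries. RPKM used canonical transcript lengths of GENCODE for GRCm39, while coordinates and promoters are those of RefSeq GRCm38.p6. The edgeR fit of Sp3-/- against WT was also run on simulated counts that took the spread of each gene from these libraries. Those counts held no effect of title suffix or cell type, so the run says nothing about either. Replicate libraries all differed by more than counting noise (chi-square per degree of freedom 15.8 or above).

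The 10 genes, the lists and the tests were chosen with earlier results of these data known. All 10 genes are named, and of each list at most the 3 largest changes called in Sp3-/- against WT, marker genes that touch a result, and the 2 genes most like each called member. Alternatives were DESeq2 1.42.0 and limma-voom (limma 3.58.1), the latter alone or allowing for correlation of libraries that share a first title number. Library size or upper quartile scaling, and no filter or filterByExpr, were tried as well. Further settings were all 11 libraries in the Sp3-/- against WT fit, a block for the first title number, and each library left out. A covariate for the title suffix, and a contrast of only the libraries that have no suffix, were fitted on all 11 libraries. Lengths over all exons, and library size for RPKM, were added after seeing the data. Python 3.11.15 and matplotlib 3.10.9 drew the figures.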

Additional observations from a re-analysis of the deposited data

Results flagged for a closer look

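*Gpc2* in Sp3+/- library 697-4 stood apart from the other libraries of its genotype. It measured 3.18 log2 CPM, against 4.06 to 4.22 in the other 3, a gap of 0.844 of the whole range. This is also the only Sp3+/- library whose title has no suffix. *Gpc2* measured 6.21 to 12.4 CPM in all libraries without a suffix and 16.1 to 23.6 CPM in all libraries with one. With the suffix covariate, its log2 fold change in Sp3-/- against WT was -0.21 (adjusted p = 0.649, edgeR). The suffix itself was not tested. Of the 10 genes in the 2 genotypes with 4 libraries, 20 sets of values were examined this way, and chance sets apart about 1 in 20.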

How the results depend on the processing

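The number of libraries per genotype limits every comparison, and the near confounding of genotype with title suffix limits those with Sp3-/- cells. Causes of the differences between settings were not tested. Over all genes, the count called in Sp3-/- against WT moved from 2599 to 4297 with DESeq2 and to 4031 with the block. It was 3977 with all 11 libraries in the fit and 1329 with the suffix covariate, which was also fitted on all 11. With 1 library left out, the count ran from 282 (without Sp3-/- 697-2) to 4179 (without WT 468-4). Against Sp3+/- it moved from 3607 to 763 with the suffix covariate and to 1490 at the lowest with 1 library left out. Of the glypicans and syndecans, 3 were called in Sp3-/- against WT, 5 with the first title number as a replicate block (*Gpc2* at -1.12, adjusted p = 0.0255, and *Sdc3* at -0.76, adjusted p = 0.0343, added by edgeR) and 0 to 4 with 1 library left out, the 0 without Sp3-/- 697-2. Against Sp3+/- the 4 calls became 2 with the suffix covariate (*Gpc4* and *Gpc6*) and 3 to 4 with 1 library left out. With the block they stayed 4 in number, but *Sdc2* (-0.43, adjusted p = 0.0671) was lost and *Sdc3* (-0.83, adjusted p = 0.0222) gained in edgeR. The first title numbers were not shown to pair libraries, since only 7 of 14 pairs with the same number had deviations correlated above 0.1 (median r 0.10), and the block gives no weight to WT 468-4, which shares its number with no Sp3-/- library. Directions turned only in genes that were not called. In Sp3-/- against WT, *Gpc3* was 1.97 with the suffix covariate, 2.04 with libraries without a suffix and -0.88 to 0.31 with 1 library left out, and *Sdc1* was 0.066 with libraries without a suffix. Against Sp3+/-, *Gpc3* was -0.046 with limma-voom, -0.058 with consensus correlation and -0.56 to 0.63 with 1 library left out. *Gpc1* was 0.12 with the block, 0.055 with the suffix covariate and -0.11 to 0.079 with 1 left out, and *Sdc1* was 0.11 with the suffix covariate. In Sp3+/- against WT, *Sdc3* was 0.083 with the block, and with 1 library left out *Gpc2* ran from -0.31 to 0.041, *Gpc3* from -0.64 to 0.18, *Gpc4* from -0.11 to 0.17, *Sdc1* from -0.18 to 0.047 and *Sdc3* from -0.14 to 0.056.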

Other observations

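*Hs6st2*, a heparan sulfate 6-O-sulfotransferase that also fell in Sp3-/- cells, lies on chromosome X of GRCm38.p6 from 51386637 to 51681705, 369.3 kb from *Gpc4*, with the protein-coding genes *Usp26* and *1700080O16Rik* between them. This was noticed after the values were seen. *Gpc5* and *Gpc6* are neighbors on chromosome 14, 399.7 kb apart with no protein-coding gene between, and the former was near the limit of detection in every library in which the latter was measured at 19.2 to 81.0 CPM.

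The 4 libraries with the lowest *Gpc3* (11.01 CPM in Sp3-/- 697-5, 21.8 CPM in Sp3+/- 697-4, 27.7 CPM in WT 468-4 and 56.4 CPM in WT 697-3) were of all 3 genotypes. The summed level of 10 S phase and mitosis genes in them was 183, 270, 232 and 404 CPM, against 296 to 659 CPM in the other 7 libraries. This sum also followed the title suffix.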
